A study of Ovis aries with 14 samples.

Results

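CPT1A, CPT1B, PPARGC1A and COX5A, 4 genes of mitochondrial fatty acid use, were followed in the hypothalamus of fetal sheep at about gestation day 130 after infusion of triclosan, an antibacterial additive of soaps and toothpaste. They were found as every array probe whose gene name, in the scanner files or through the RefSeq gene table, was one of these 4 symbols, which gave 6 probes of 15008: 2 for CPT1A, 2 for CPT1B and 1 each for PPARGC1A and COX5A. A further 2 probes carry the array name pgc1 and are described in the files as the peroxisome proliferative activated receptor gamma coactivator 1, and these are given beside PPARGC1A and not counted as members. The 4 groups were fetuses given triclosan into the fetal circulation at 250 µg per day (n = 4), fetuses given vehicle by the same route (n = 4), fetuses whose ewe received triclosan at 100 µg/kg per day (n = 3), and fetuses whose ewe received vehicle (n = 2 arrays used of 3 deposited). Every infusion ran for 2 days, and the fetuses infused directly carried long-term catheters in both the triclosan and the vehicle group. The 2 doses are in different units and cannot be set side by side as amounts reaching the fetus. The third maternal vehicle array was left out because at all 15744 spots it equals 0.6 times the first plus 0.4 times the second of its group. No label says whether arrays within a group stand for different pregnancies, so p-values measure only the spread between these arrays.

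Long-chain fatty acids enter mitochondria as carnitine esters, which carnitine palmitoyltransferase 1 of the outer membrane makes. CPT1A encodes the form first found in liver and also present in brain, CPT1B encodes the form of heart and skeletal muscle, and both are inhibited by malonyl-CoA, the product of acetyl-CoA carboxylase. In rodents, malonyl-CoA and CPT1 in the hypothalamus are known for a role in sensing energy supply. PPARGC1A encodes PGC-1alpha, a coactivator that binds nuclear receptors such as PPARA and raises transcription of genes for oxidation and for mitochondria, and COX5A encodes a nuclear-encoded subunit of cytochrome c oxidase, the last complex of the respiratory chain.

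What each probe can see is set by its 60 bases, shown here for the probes on which the results turn, 5′ to 3′, as listed on the array. Capitals mark the bases that a probe shares with the other probe of the same name. The CPT1A probes start at positions 2430 and 2429 of the transcript and share 59 bases, so they are nearly 1 measurement made at different spots. The CPT1B probe A_70_P030107 starts at position 2386 and shares 40 bases with A_70_P030106. The PPARGC1A probe starts at position 259 of its own record, and the pgc1 probes start at positions 724 and 692 of another record and share 28 bases with each other.
CPT1A A_70_P051281: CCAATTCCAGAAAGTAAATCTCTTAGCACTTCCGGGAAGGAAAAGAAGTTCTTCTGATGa
CPT1A A_70_P051282: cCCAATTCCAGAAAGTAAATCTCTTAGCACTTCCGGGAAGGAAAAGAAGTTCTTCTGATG
CPT1B A_70_P030107: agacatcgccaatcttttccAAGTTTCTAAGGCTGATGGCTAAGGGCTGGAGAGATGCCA
PPARGC1A A_70_P002736: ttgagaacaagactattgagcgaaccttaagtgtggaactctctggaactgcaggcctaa
pgc1 A_70_P049666: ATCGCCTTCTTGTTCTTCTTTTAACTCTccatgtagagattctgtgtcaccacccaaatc
pgc1 A_70_P049667: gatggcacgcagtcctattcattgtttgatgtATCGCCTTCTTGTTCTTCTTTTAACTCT
Between probes of different names the longest shared run was 8 bases, and between the PPARGC1A probe and the pgc1 probes it was 7 and 6 bases, so these read different stretches of sequence.

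All 8 probes were well above background on 13 of 13 arrays and none was saturated. Values are scaled log2 signals, the log2 of the processed signal minus the 75th percentile of the array, so a negative value is dimmer than that percentile, and levels are not compared between probes. Over the whole array, the median processed signal was 236.1 to 307.4 with fetal triclosan, 315.4 to 380.0 with fetal vehicle, 284.3 to 375.8 with maternal triclosan and 350.9 to 353.9 with maternal vehicle. Between 83.3% and 90.1% of non-control spots were well above background on an array. Of 13738 probes tested with limma over the 4 groups, 18.2% were called in the fetal infusion at an adjusted p under 0.05, 11.4% lower and 6.82% higher, with a median log2 difference of −0.09. That balance turned with median scaling (2175 probes higher and 946 lower), and the count of 2498 was 1214 without fetal vehicle array 3.

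Fetal infusion asks what differs when triclosan reaches the fetus directly. PPARGC1A and CPT1A fell with fetal triclosan, by 1.21 and 0.89 on the log2 scale. CPT1B did not pass the test at either probe, and COX5A had the same mean in both groups. Thus 2 of the 4 genes, or 3 of the 6 probes, were called lower and 0 higher, beside 11.4% of all tested probes called lower. The groups did not overlap, with triclosan lower, at 4 of the 6 probes, beside 12.7% of all probes with values on every array, and with triclosan higher at 0 of 6, beside 9.03%. Each of these shares is over few genes that were picked with earlier results of these arrays known. The CPT1A probes share 59 bases, so the probe counts are not counts of separate measurements.

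CPT1A had scaled log2 signals of −1.85, −1.36, −1.20 and −0.86 at probe A_70_P051282 on fetal triclosan arrays 1 to 4, against −0.04, −0.37, −0.47 and −0.82 on fetal vehicle arrays 1 to 4. Every triclosan array was below every vehicle array, although the highest triclosan array and the lowest vehicle array were close. The means were −1.32 ± 0.41 with triclosan and −0.42 ± 0.32 with vehicle (SD, n = 4 each), a log2 difference of −0.89 (SE 0.21, 95% confidence interval −1.35 to −0.43, limma adjusted p = 0.0151), so that the vehicle signal was 1.86 times the triclosan signal. An exact two-sided permutation test over the 8 arrays gave p = 0.0286, the smallest that 70 splits allow. The overlapping probe A_70_P051281, printed on 5 spots of each array that varied by 3.2% to 13.7% (coefficient of variation), gave −0.81 (SE 0.18, limma adjusted p = 0.0128). Within slides 1, 2 and 3, each holding 1 triclosan and 1 to 2 vehicle arrays, the difference was −1.81, −0.99 and −0.56, so its size varied by slide while its sign did not. The call held in all 13 fits that left out 1 array and was lost in 2 other settings, when the fetal arrays were fitted without the maternal ones (limma adjusted p = 0.0543) and when replicate numbers were blocked within each arm (0.0802). Over 28 alternatives the limma adjusted p ran between 0.00658 and 0.0802.

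**Figure D1:**
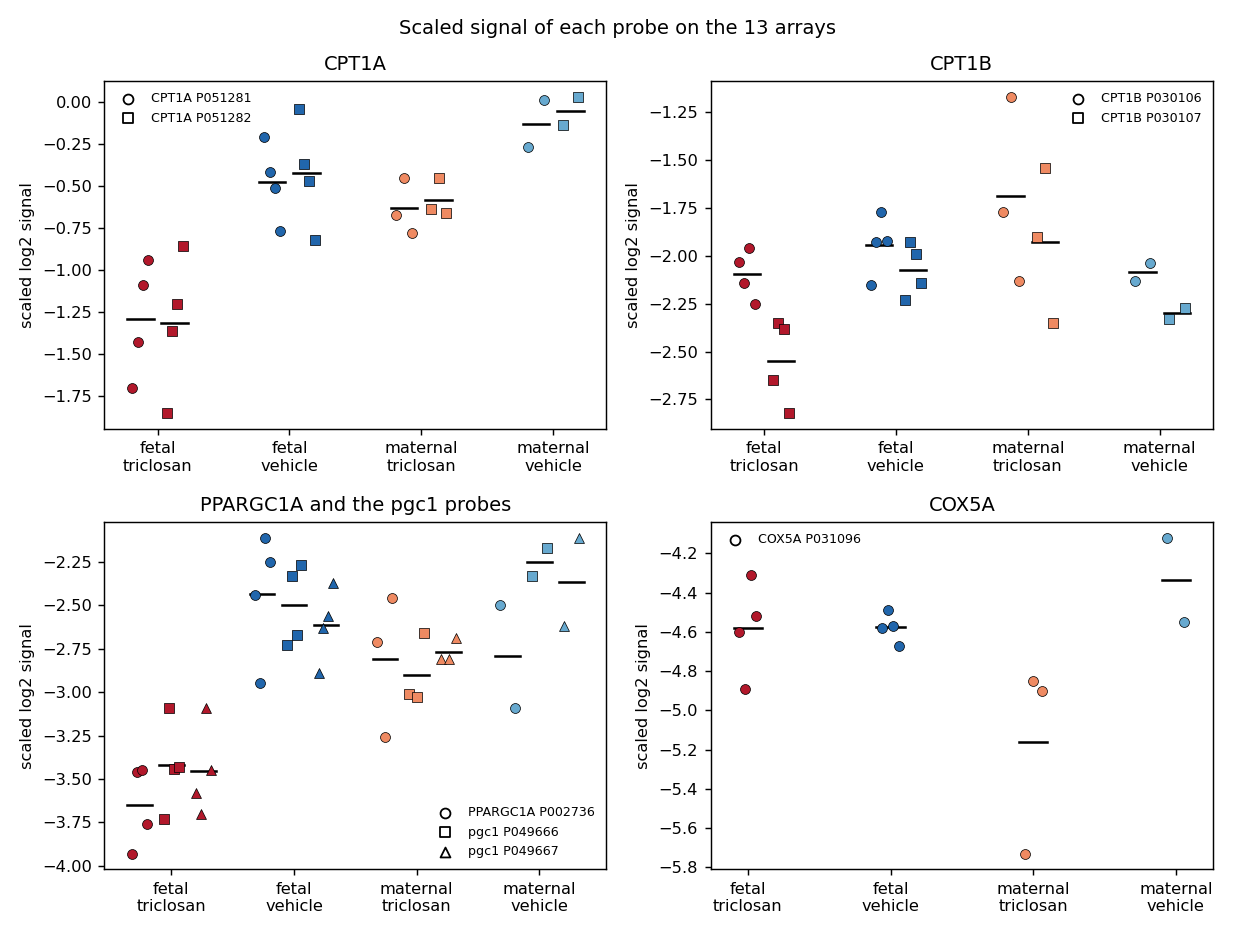
Scaled log2 signal (log2 processed signal minus the 75th percentile of the array) of each probe on the 13 arrays by group, 1 panel per gene with its own axis; points are arrays, marker shapes are probes and black bars are group means. For CPT1A and for PPARGC1A with the pgc1 probes every fetal triclosan array sits below every fetal vehicle array of the same probe, while COX5A has means of −4.58 in both fetal groups.

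CPT1B, the muscle form, was read by probes that differed in the size of their difference. At A_70_P030106, the probe of higher mean, fetal triclosan arrays 1 to 4 had −2.03, −2.14, −1.96 and −2.25, against −2.15, −1.93, −1.77 and −1.92 on fetal vehicle arrays 1 to 4. The groups overlapped, and the log2 difference was −0.15 (SE 0.18, 95% confidence interval −0.54 to 0.24, limma adjusted p = 0.598, exact permutation p = 0.171), with a sign that turned to 0.05 with quantile normalization and to 0.07 with median scaling. At A_70_P030107 the fetal triclosan arrays had −2.65, −2.35, −2.38 and −2.82, against −2.23, −1.93, −1.99 and −2.14 on the fetal vehicle arrays. These groups did not overlap, and the difference of −0.48 (SE 0.17, 95% confidence interval −0.86 to −0.10) had an exact permutation p of 0.0286 and a limma adjusted p of 0.078, short of the threshold over all probes. It passed without maternal triclosan array 3, which enters through the shared spread (limma adjusted p = 0.0426, range over 27 alternatives 0.0426 to 0.394).

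PPARGC1A, the coactivator, had −3.93, −3.46, −3.45 and −3.76 on fetal triclosan arrays 1 to 4, against −2.44, −2.95, −2.11 and −2.25 on fetal vehicle arrays 1 to 4. The groups lay apart, with the vehicle array nearest to triclosan being array 2. The means were −3.65 ± 0.23 with triclosan and −2.44 ± 0.37 with vehicle (SD, n = 4 each), a log2 difference of −1.21 (SE 0.23, 95% confidence interval −1.72 to −0.71, limma adjusted p = 0.0068, exact permutation p = 0.0286). The vehicle signal was thus 2.32 times the triclosan signal. Within slides 1, 2 and 3 the difference was −1.49, −0.51 and −1.27, smallest on slide 2, which holds the lowest vehicle array. The call held in all 13 fits without 1 array and in each of 16 other settings, with limma adjusted p up to 0.0255.

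The pgc1 probes, which read another stretch of sequence, moved in the same direction in the fetal infusion. A_70_P049666 had −3.73, −3.09, −3.44 and −3.43 with fetal triclosan, against −2.73, −2.33, −2.67 and −2.27 with fetal vehicle, and fell by 0.92 (SE 0.16, limma adjusted p = 0.00539). A_70_P049667 had −3.58, −3.70, −3.09 and −3.45 with fetal triclosan, against −2.89, −2.63, −2.56 and −2.37 with fetal vehicle, and fell by 0.84 (SE 0.17, limma adjusted p = 0.00765). Neither pair of groups overlapped. With the authors' deposited values in place of the scanner signals, A_70_P049667 had −0.39 and lost the call (adjusted p = 0.117, range over 27 alternatives 0.00362 to 0.117). The mean of the PPARGC1A probe and both pgc1 probes, a setting chosen after seeing the data, fell by 0.99 (limma adjusted p = 0.00296).

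COX5A, the respiratory chain subunit, had −4.60, −4.89, −4.31 and −4.52 on fetal triclosan arrays 1 to 4, against −4.58, −4.49, −4.57 and −4.67 on fetal vehicle arrays 1 to 4. The groups overlapped fully and both means were −4.58, with an SD of 0.24 with triclosan and 0.08 with vehicle (n = 4 each). The difference was 0.00 (SE 0.20, 95% confidence interval −0.44 to 0.44, limma adjusted p = 0.999, exact permutation p = 1.0). It ran between −0.09 and 0.25 over the settings that used all fetal arrays or left 1 out. Its processed signals were 55.8 to 81.9 with fetal triclosan and 72.4 to 78.6 with fetal vehicle.

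Differences in the fetal infusion also varied with the brightness of a probe. Among tested probes of the brightness decile of CPT1A (the seventh from the dimmest) the median log2 difference was −0.06 and 13.5% were called lower. In the fourth decile, that of PPARGC1A and of A_70_P049667, the median was −0.28 and 21.0% were called lower, and in the third, that of COX5A, −0.26 and 16.1%. PPARGC1A and CPT1A thus lay well below the medians of probes as bright as they were, and the part of the brightness trend in their values was not tested.

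**Figure D2:**
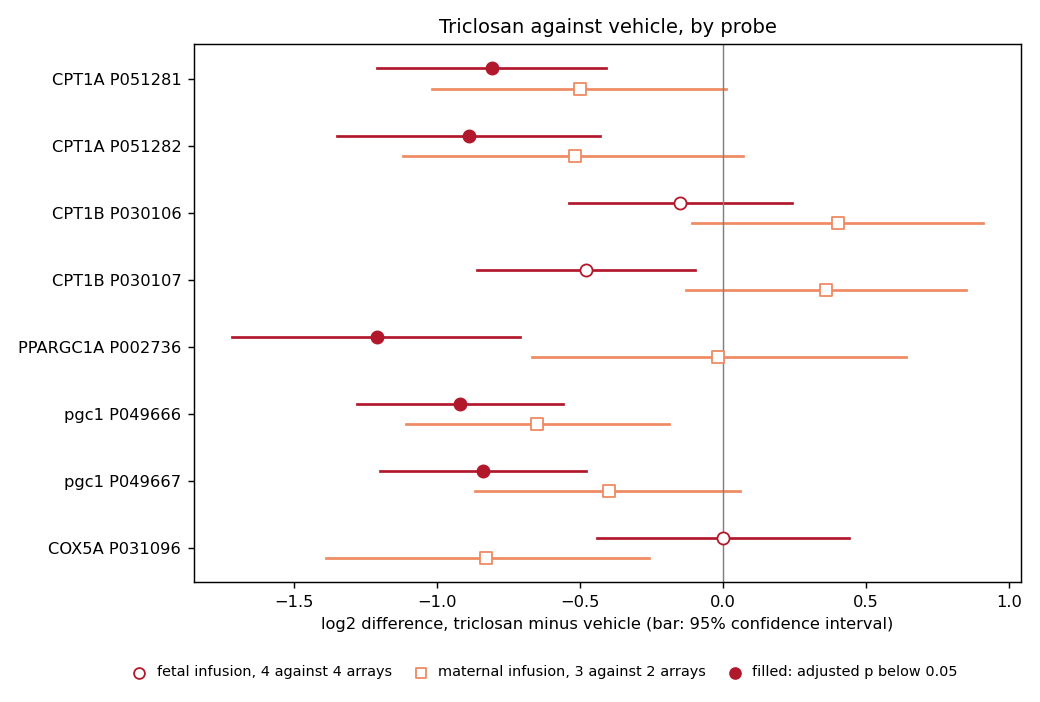
Log2 difference, triclosan minus vehicle, with its 95% confidence interval for each probe in the fetal infusion (circles, 4 against 4 arrays) and the maternal infusion (squares, 3 against 2 arrays); filled symbols have a limma adjusted p below 0.05. The filled symbols are the CPT1A, PPARGC1A and pgc1 probes in the fetal infusion, and no maternal value is filled.

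Maternal infusion asks what differs in the fetus when the ewe receives triclosan. None of the 6 probes passed the test, in a comparison where limma called 0 of 13738 probes (0% called, with 1324 at an unadjusted p under 0.05). CPT1A again had lower values with triclosan, COX5A had the lowest values of all members relative to its vehicle group, CPT1B had higher means, and PPARGC1A had nearly equal means. With 3 arrays against 2 no exact permutation test can reach 0.05. The groups did not overlap, with triclosan lower, at 3 of the 6 probes (both CPT1A probes and COX5A), beside 19.0% of all probes with values on every array, and with triclosan higher at 0 of 6, beside 19.9%.

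CPT1A had −0.64, −0.45 and −0.66 at A_70_P051282 on maternal triclosan arrays 1 to 3, against −0.14 and 0.03 on maternal vehicle arrays 1 and 2. The triclosan arrays lay below the vehicle arrays, and the difference was −0.52 (SE 0.27, 95% confidence interval −1.12 to 0.07, limma adjusted p = 0.562). Within slides 1 and 2 it was −0.50 and −0.47. The overlapping probe had −0.50.

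COX5A had −5.73, −4.85 and −4.90 on maternal triclosan arrays 1 to 3, against −4.12 and −4.55 on maternal vehicle arrays 1 and 2. Array 1 of the triclosan group was far below its other arrays, with a processed signal of 33.5, the lowest of any member probe. Processed signals were 33.5 to 60.1 with maternal triclosan and 74.3 to 98.3 with maternal vehicle. The difference was −0.83 (SE 0.26, 95% confidence interval −1.39 to −0.26, unadjusted p = 0.00807, limma adjusted p = 0.436), and it was −0.54 without maternal triclosan array 1. Within slides 1 and 2 it was −1.61 and −0.30. With array weights, which give less weight to noisier arrays, it passed the test (−1.07, limma adjusted p = 0.042, range over 28 alternatives 0.042 to 0.956), in a setting where 408 probes passed against 0 without weights.

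PPARGC1A had −2.71, −3.26 and −2.46 on maternal triclosan arrays, against −2.50 and −3.09 on maternal vehicle arrays. These groups overlapped, with a difference of −0.02 (SE 0.30, 95% confidence interval −0.67 to 0.64, limma adjusted p = 0.99). A_70_P049666 had −3.01, −3.03 and −2.66 with maternal triclosan, against −2.33 and −2.17 with maternal vehicle, and a difference of −0.65 (SE 0.21, unadjusted p = 0.0101, limma adjusted p = 0.441). A_70_P049667 had −2.81, −2.81 and −2.69 with maternal triclosan, against −2.62 and −2.11 with maternal vehicle, and a difference of −0.40 (limma adjusted p = 0.563). Neither pgc1 pair overlapped, as for 19.0% of all probes in that direction, and the difference between the PPARGC1A and pgc1 probes was not tested.

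CPT1B at A_70_P030106 had −1.77, −1.17 and −2.13 on maternal triclosan arrays, against −2.13 and −2.04 on maternal vehicle arrays, a difference of 0.40 (SE 0.23, limma adjusted p = 0.588). Probe A_70_P030107 had −1.90, −1.54 and −2.35 with maternal triclosan, against −2.33 and −2.27 with maternal vehicle, a difference of 0.36 (limma adjusted p = 0.599). At both probes maternal triclosan array 2 was the highest of the 13 arrays, and the groups overlapped. Without that array the first difference was 0.14.

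The difference between the infusions, fetal minus maternal, was not called for any member, in a comparison where limma called 0 of 13738 probes (0% called, lowest adjusted p 0.193, 2013 at an unadjusted p under 0.05). PPARGC1A had the largest, −1.20 (SE 0.38, 95% confidence interval −2.03 to −0.37, unadjusted p = 0.00862, limma adjusted p = 0.254). COX5A had 0.83 (SE 0.33, unadjusted p = 0.0273, limma adjusted p = 0.306), CPT1A −0.37 (SE 0.34, limma adjusted p = 0.599), and CPT1B −0.55 and −0.84 at its 2 probes (limma adjusted p = 0.392 and 0.264). So a fall of PPARGC1A in fetal but not in maternal infusion was not shown as a difference between routes after adjustment. Under vehicle alone, maternal minus fetal, limma called 0 of 13738 probes (0% called, 450 at an unadjusted p under 0.05), and the members ran between −0.36 (PPARGC1A) and 0.37 (CPT1A), each at a limma adjusted p of 0.999.

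Genes of the pathway were counted from lists that cover fatty acid uptake, oxidation, synthesis and their control. These lists include the members, with CPT1A and CPT1B in the shuttle list, PPARGC1A among the regulators and COX5A in the respiratory chain list. No other gene of the shuttle and regulator lists was called at its probe of highest mean in the fetal infusion. Few of the listed genes had a named probe on this array. Of the 951 named genes tested, each at its probe of highest mean, 87 were called lower (9.15%) and 58 higher in the fetal infusion, with a median of −0.10. In the maternal infusion no gene of any list was called, so counts below are for the fetal infusion.

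Of 9 carnitine shuttle genes 3 were measured, with 1 lower (CPT1A), 0 higher and a median of −0.55. SLC25A20, the carrier that takes acylcarnitine across the inner membrane, had −0.55 (SE 0.25, limma adjusted p = 0.153), and passed in 3 of 27 alternatives (adjusted p 0.0155 to 0.354): array weights (−0.67, 0.034), the slide block (−0.74, 0.0155) and without fetal triclosan array 4 (−0.80, 0.0173). Of 17 genes of fatty acid entry and activation 3 were measured and 0 called, with a median of 0.34. FABP5, a fatty acid binding protein, had 0.34 (limma adjusted p = 0.0854). It passed with median scaling (0.0186) and without fetal triclosan array 3 (0.0215), in a range of 0.0186 to 0.728 over 27 alternatives. LPL, which frees fatty acids from lipoproteins, had 0.38 (0.239). None of 20 beta oxidation enzymes and none of 5 ketone body genes had a named probe, so the oxidation steps after the shuttle were not measured under these names.

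Of 20 regulators of oxidation 6 were measured, with 1 lower (PPARGC1A), 0 higher and a median of −0.11. PPARA, the fatty acid receptor that PGC-1alpha coactivates, had 0.16 (SE 0.20, limma adjusted p = 0.618), and PPARG, its adipose relative, 0.00 (SE 0.15, 0.996). GABPA and CREB1, transcription factors of mitochondrial genes and of the PPARGC1A promoter, had −0.23 (limma adjusted p = 0.304) and −0.22 (0.283). NRF1, a factor of respiratory genes, had 1.05 (SE 0.49, limma adjusted p = 0.163) at its probe of higher mean and −0.82 at its other probe, which was called. Its probes thus disagreed in sign, and the first passed in 5 of 27 alternatives (adjusted p 0.00284 to 0.373): normexp (0.0401), the authors' values (0.0469), array weights (0.0222), the slide block (1.68, 0.00481) and without fetal triclosan array 4 (1.67, 0.00284). Of 18 energy sensors and response genes 4 were measured and 0 called, with a median of 0.04, and PRKAA2, a catalytic subunit of AMP-activated kinase, had −0.32 (SE 0.13, limma adjusted p = 0.106).

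Fatty acid synthesis, the opposing pathway, had 4 of 8 genes measured, with 2 lower, 0 higher and a median of −0.69. ACLY, which supplies cytosolic acetyl-CoA, fell by 0.93 (SE 0.23, limma adjusted p = 0.0168), a call lost without fetal vehicle array 3 (0.0574, range over 27 alternatives 0.00796 to 0.0574). SCD, which desaturates fatty acids, fell by 0.72 (SE 0.17, limma adjusted p = 0.0149). FASN, the fatty acid synthase, had −0.66 (SE 0.29, limma adjusted p = 0.132). It passed with the replicate block (0.0426) and without fetal triclosan array 3 (0.0439), in a range of 0.0426 to 0.467 over 27 alternatives. ACACA, the carboxylase that makes the CPT1 inhibitor malonyl-CoA, had 0.26 (SE 0.30, limma adjusted p = 0.576) in the fetal infusion and 1.39 (SE 0.38, unadjusted p = 0.00382, limma adjusted p = 0.384) in the maternal infusion.

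Respiratory chain and ATP synthase genes numbered 4 measured of 46, with 2 higher, 0 lower and a median of 0.23. ATP5PO, a stalk subunit of ATP synthase, rose by 0.59 (SE 0.11, limma adjusted p = 0.00652). ATP5MC1, a membrane subunit, rose by 0.47 (SE 0.11, limma adjusted p = 0.0164) at its probe of highest mean, while its 4 probes ran between −1.02 and 0.63. That call was lost in 4 of 27 alternatives (adjusted p 0.00597 to 0.429): quantile normalization (0.15, 0.424), the authors' values (0.16, 0.429), the fetal groups alone (0.0616) and the replicate block within each arm (0.0653). COX15, which makes the heme of cytochrome oxidase, had −0.19 (limma adjusted p = 0.414). Of 13 other mitochondrial genes 4 were measured and 0 called, with a median of 0.17. SOD2, the matrix superoxide dismutase, had 0.51 (SE 0.21, limma adjusted p = 0.107). It passed with median scaling (0.0413) and without fetal triclosan array 3 (0.00587), in a range of 0.00587 to 0.26 over 27 alternatives. VDAC1, the outer membrane channel, had −0.19, or −0.31 with the slide block (limma adjusted p = 0.036, range over 27 alternatives 0.036 to 0.913). The adenine nucleotide carriers SLC25A4 and SLC25A5 had 0.16 and 0.18. Genes on these lists that were not well above background on all 13 arrays are counted without values.

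**Figure D3:**
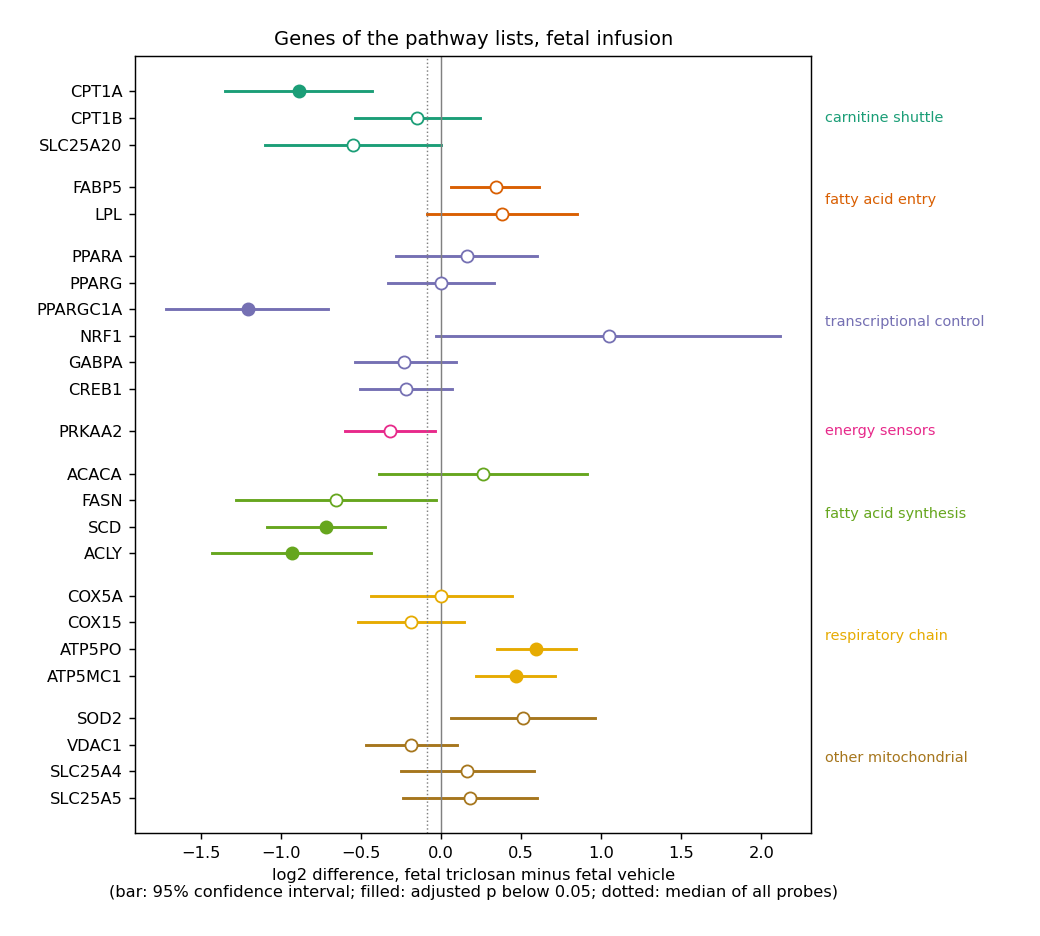
Log2 difference, fetal triclosan minus fetal vehicle, with its 95% confidence interval for each measured pathway gene that was well above background on all 13 arrays, coloured by list; filled symbols have a limma adjusted p below 0.05 and the dotted line is the median of all probes (−0.09). CPT1A, PPARGC1A, ACLY and SCD are filled below 0, and ATP5PO and ATP5MC1 above it.

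In bulk tissue, fewer cells of a type and less RNA per cell cannot be told apart. Astrocytes are a main site of fatty acid oxidation in brain. Of 10 astrocyte markers 6 were measured. In the fetal infusion 2 were called lower, SLC1A3 (−0.77, limma adjusted p = 0.0132) and FGFR3 (−1.61, 0.0106), 0 were called higher, 5 had negative differences and the median difference was −0.46, against −0.09 over all probes. In the maternal infusion 0 were called, 3 had an unadjusted p under 0.05, 5 had negative differences and the median was −0.64, against 0.01 over all probes, with −1.44 for SLC1A2 (limma adjusted p = 0.227), −0.94 for FGFR3 (0.535), −0.73 for GJA1 (0.515) and −0.54 for SLC1A3 (0.497). Probes of a gene varied, between −1.44 and −0.72 over 3 for SLC1A2 and between −0.73 and −0.17 over 4 for GJA1. In the fetal infusion the GJA1 probes ran between −0.08 and 0.46. The summed signal of the astrocyte markers, most of it from AQP4 (mean scaled log2 signal 6.23 with fetal triclosan and 6.10 with fetal vehicle), in units of the array's 75th percentile, was 75.5 to 108 with fetal triclosan and 71.6 to 88.9 with fetal vehicle. The defining markers GFAP and AQP4 were well above background on all 13 arrays, with −0.63 (limma adjusted p = 0.242) and 0.13 (0.537). Neuron (10 listed) and oligodendrocyte (8 listed) markers had no named probe, so those cells were not checked.

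Markers of blood and other cells were counted in the same way. Of 7 erythroid markers 3 were measured, with 1 higher (AHSP) and 0 lower, and the sum was 11.8 to 23.4 with fetal triclosan, against 4.28 to 12.5 with fetal vehicle, and 10.5 to 26.8 with maternal triclosan, against 3.28 to 8.90 with maternal vehicle. Most of the sum came from HBB at its probe of higher mean (scaled log2 signal 4.22 with maternal triclosan and 2.42 with maternal vehicle). The 2 HBB probes had differences of 1.32 and 1.22 in the fetal infusion. In the maternal infusion they disagreed in sign, with 1.8 at the probe used and −0.43 at the other. Of 9 endothelial markers 4 were measured, with 1 lower (KDR), and of 6 microglial markers 1 was measured and lower (ITGAM). By probe, the fetal calls were 4 of 4 for KDR, 1 of 2 for ITGAM (−0.95 and −0.79) and 1 of 2 for AHSP (0.94 and 0.51). FLT1, not called at its probe of highest mean, was called at 1 of 5 probes. Of 12 striated muscle markers, which would come with the muscle form CPT1B, 5 were measured and 0 called, at sums of 0.142 to 0.228 with fetal triclosan and 0.175 to 0.280 with fetal vehicle. The myosins MYH1, MYH2 and MYH7 were well above background on 4, 4 and 6 of 13 arrays. MB and MYOD1 were well above background on all 13 arrays and gave most of the sum. In the fetal infusion MB had −0.57 (limma unadjusted p = 0.0335, adjusted p = 0.116) and MYOD1 0.16 (adjusted p = 0.71). Of 6 adipose markers 4 were measured, of 8 pituitary markers 5, of 5 choroid plexus markers 2 and of 6 ependymal markers 1, with 0 called in the fetal infusion. The choroid plexus sum ran between 0.253 and 10.4 with fetal triclosan, against 0.514 to 2.58 with fetal vehicle. In the maternal infusion the pituitary sum was 18.0 to 19.1 with triclosan and 14.5 to 15.5 with vehicle. Most of the pituitary sum came from LHB (mean scaled log2 signal 3.94 with maternal triclosan and 3.8 with maternal vehicle). The LHB difference was 0.14 (limma adjusted p = 0.862). VIM, the 1 measured gene of the ependymal list, was 76.0 to 94.7 with maternal triclosan and 58.3 to 64.2 with maternal vehicle. Its fetal groups overlapped, at 40.2 to 88.1 with triclosan and 40.6 to 50.8 with vehicle. The choroid plexus sum in the maternal infusion was 0.301 to 0.668 against 0.929 to 1.43. There CGA (3.83) and POMC (1.66) were higher and PRL (−1.57) lower, each at an unadjusted limma p under 0.05. The part of these cells in the members' values was not tested.

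Over the 13 arrays CPT1A and PPARGC1A had a Pearson correlation of 0.62, while their deviations from the group means had −0.15, and PPARGC1A and pgc1 had 0.74 and 0.19. The lowest correlations of deviations were those of CPT1B with PPARGC1A (−0.45, and 0.06 over the arrays) and with pgc1 (−0.31, and −0.02). CPT1B with CPT1A had 0.12 over the arrays and −0.09 for deviations, and COX5A with PPARGC1A had −0.08 and −0.05. These are descriptions without a test.

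Among 929 named genes with values on all arrays, those most like CPT1A were MGLUR3 (0.91, or 0.62 for deviations from group means), HOMER (0.89, or 0.67) and PDIA4 (0.88, or 0.53), the first and second being array names for a metabotropic glutamate receptor and a scaffold of such receptors. PPARGC1A was most like CHRD (0.92, or 0.83), ACVR1B (0.89, or 0.82) and PAX4 (0.87, or 0.75), and RAN was at the other end (−0.92, or −0.81). CPT1B was most like ATP6V0C (0.81, or 0.81), PRKACA (0.78, or 0.78) and LOC443344 (0.77, or 0.61), with CD1D lowest (−0.88, or −0.90). COX5A had weaker likenesses, with CLEC4E (0.73, or 0.74), ATP6V1B2 (0.72, or 0.35) and BCAT1 (0.70, or 0.53). For CPT1A the lowest was LOC100037664 (−0.92, or −0.62). The points are 13 arrays of 4 groups under 1 scaling, so a difference between groups enters each correlation.

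**Figure D4:**
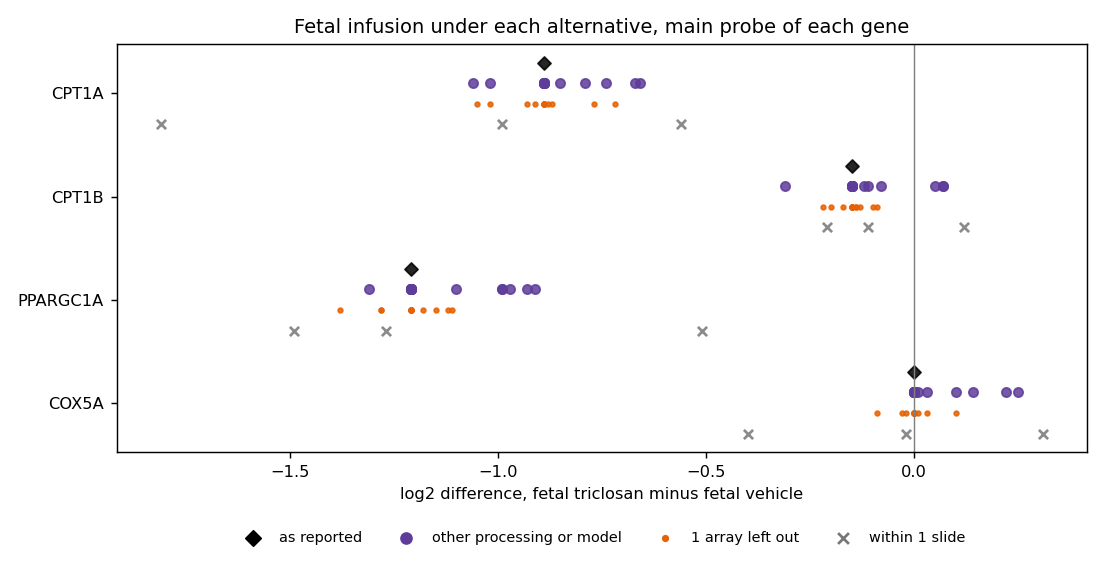
Log2 difference, fetal triclosan minus fetal vehicle, of the main probe of each gene as reported (diamonds), under other processing or models (circles), with 1 array left out (dots) and within 1 slide (crosses). CPT1A and PPARGC1A stay below 0 in every setting, CPT1A between −1.06 and −0.66 over the other settings, while CPT1B and COX5A lie on both sides of 0.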

How the data were processed

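Hypothalamic RNA of 14 fetal sheep samples was measured on single-colour (Cy3) ovine Agilent arrays. The deposited scanner files give intensity per spot, made with Agilent Feature Extraction 10.1.1.1 per the file headers, background-subtracted within the array and not scaled between arrays. The authors' deposited value table (13899 probes) was taken to be on a log2 scale, with column medians of 8.78 to 8.80. By rank correlation each column lay closest to its own array, which matches columns to arrays but cannot show their scale. No source used here gives the scaling of that table. Control and outlier spots were left out, spots of a probe were averaged, and each log2 signal was taken relative to its array's 75th percentile. Probes well above background on at least 3 of 13 arrays were kept (13738 probes, 250 missing values). limma 3.58.1 in R 4.3.3 fitted group means (9 residual and 2.36 prior degrees of freedom), with Benjamini-Hochberg adjustment over all tested probes and a two-sided threshold of 0.05; it was tested on simulated data. Plots were drawn with matplotlib 3.10.9 in Python 3.11.15. The number of arrays limits the precision.

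Probes were named by RefSeq transcript (726), symbol (511), the name in the file (271), gene number (125) or older symbol (20), and 13355 had no gene name. A gene is read at its probe of highest mean. Every member probe was named, up to 5 measured genes of each pathway list by smallest unadjusted p in the fetal infusion plus any called, where measured on all arrays, and for likeness the 3 highest and 1 lowest correlations per member, of which 1 is not reported here. The members and lists were chosen with earlier results of these data known. The files name no genome build, so no coordinates are given. Slides 1, 2 and 3 held the used arrays of those numbers, with fetal vehicle array 4 also on slide 3. Fetal triclosan array 4 was alone on slide 5, and the maternal vehicle array left out was on slide 4. Alternatives were normexp background correction (offset 50), quantile and median scaling, the authors' values, filters, outlier spots, array weights, variance trend, other sets of arrays, slide and replicate blocks, and the mean of all probes of a gene.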

Additional observations from a re-analysis of the deposited data

How the results depend on the processing

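Of the 4 genes, PPARGC1A kept its direction and its call in the fetal infusion in all 29 alternatives (limma adjusted p 0.00296 to 0.0255), and CPT1A kept its direction in all 28 and its call in 26. Its call went when the fetal arrays were fitted without the maternal ones (−0.89, adjusted p 0.0543) and under the replicate block within each arm (−0.89, adjusted p 0.0802). The count of probes called in the fetal infusion, 2498, was 1275 in that fit without maternal arrays. In the maternal infusion, 0 became 12 with all 14 arrays and 408 with array weights, and for the difference between the infusions 0 became 4 with all 14 arrays and 1 with quantile normalization. Median scaling called 2175 probes higher and 946 lower in the fetal infusion, against 937 and 1561, and moved the median of all probes to 0.13 against −0.09, so directions of small differences depend on the scaling. Where a value below changed, the cause was not tested.

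CPT1B in the fetal infusion (−0.15) was 0.05 with quantile normalization, 0.07 with median scaling and 0.07 with the authors' values. COX5A in the fetal infusion (0.00) was 0.10 with normexp, 0.25 with quantile normalization, 0.22 with median scaling, 0.14 with the authors' values, 0.03 with array weights and 0.01 with the slide as a block. PPARGC1A in the maternal infusion (−0.02) was 0.02 with median scaling, 0.00 with the authors' values and 0.00 with array weights. COX5A in the maternal infusion passed the test with array weights (−1.07, adjusted p 0.042). The pgc1 probe A_70_P049666 had a difference between the infusions of −0.27, or 0.03 with normexp and 0.06 with the authors' values. Among values within a slide that moved by over 1 SD, the fetal infusion had −1.81 (CPT1A) and 0.12 (CPT1B) on slide 1, −0.51 (PPARGC1A) and −0.40 (COX5A) on slide 2 and 0.31 (COX5A) on slide 3, and the maternal infusion 0.87 (CPT1B, slide 2) and −1.61 and −0.30 (COX5A, slides 1 and 2). Array weights also called the pgc1 probe A_70_P049666 (−0.71, adjusted p 0.0432) and ACACA (1.38, adjusted p 0.026) in the maternal infusion.

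Pathway genes that did not pass also changed sign. PPARG in the fetal infusion was 0.07 with normexp, 0.27 with quantile normalization, 0.22 with median scaling, 0.21 with the authors' values, 0.11 with array weights and 0.06 with the slide block. GABPA and CREB1 were 0.04 and 0.03 with quantile normalization, and CREB1 0.00 with median scaling and 0.03 with the authors' values. COX15 was 0.05, 0.03 and 0.02 with quantile normalization, median scaling and the authors' values, and VDAC1 0.03 with median scaling. SLC25A4 and SLC25A5 were −0.12 and −0.06 with quantile normalization, −0.15 and −0.13 with the authors' values and −0.05 and −0.02 with the slide block. In the maternal infusion FASN was −0.06 with normexp, −0.06 with the slide block, −0.08 with the replicate block and −0.03 with it within each arm, ATP5PO −0.04, −0.03, 0.00 and −0.01 with quantile normalization, the authors' values, 14 arrays and array weights, and ATP5MC1 −0.09 with the authors' values.

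Leaving out each of 13 arrays in turn gave 1214 (without fetal vehicle array 3; 1642 without fetal vehicle array 1) to 2951 calls in the fetal infusion, 0 to 2 in the maternal infusion and 0 to 12 for their difference. The fetal differences ran between −1.05 and −0.72 for CPT1A, −0.22 and −0.09 for CPT1B, −1.38 and −1.11 for PPARGC1A and −0.09 and 0.10 for COX5A. The maternal ones ran between −0.61 and −0.44 for CPT1A, 0.14 and 0.62 for CPT1B, −0.31 and 0.28 for PPARGC1A and −1.04 and −0.54 for COX5A. The differences between infusions ran between −0.52 and −0.19 for CPT1A, −0.77 and −0.29 for CPT1B, −1.49 and −0.90 for PPARGC1A and 0.54 and 1.04 for COX5A. Among pathway genes, ranges crossed 0 for PPARG (−0.13 to 0.08), ACACA (−0.02 to 0.52), SLC25A4 (−0.05 to 0.29) and SLC25A5 (−0.02 to 0.33) in the fetal infusion, and for FASN (−0.03 to 0.40), SCD (−0.60 to 0.02) and ATP5PO (−0.08 to 0.09) in the maternal infusion.

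In the fetal infusion arrays 1, 2 and 3 of both groups shared slides 1, 2 and 3, and their deviations correlated at 0.131, 0.118 and 0.265, each triclosan array best with the vehicle array of its own number, against −0.171 for the arrays numbered 4, on different slides. In the maternal infusion the same-slide pairs had −0.084 and −0.076. The labels give no meaning to the numbers, so the block is an alternative. With the replicate block, CPT1A had −0.89 (adjusted p 0.0328), PPARGC1A −1.21 (0.00682), CPT1B −0.15 (0.61) and COX5A 0.00 (0.999), with 2824 probes called. With the block within each arm, added after seeing the data, 1665 probes were called in the fetal infusion, 2 in the maternal one and 2 for their difference, CPT1A probe A_70_P051281 lost its call (−0.81, adjusted p 0.0626) and CPT1B probe A_70_P030107 passed (−0.48, adjusted p 0.049). With the slide as a block CPT1A had −1.06 (0.0119) and PPARGC1A −1.10 (0.00883), fetal triclosan array 4 then having no partner.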
